A study of Caenorhabditis elegans with 8 samples.

Results

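Sperm of the nematode Caenorhabditis elegans were set against 1-cell embryos, the zygotes that form when a sperm fertilizes an oocyte, by sequencing of polyadenylated RNA. Genes were kept when they had at least 1 RPKM in 2 or more of 4 libraries, which left 11489 of the 21774 genes in the deposited table. RPKM is a read count scaled by transcript length and library size, so levels of different genes can be set side by side. The 4 libraries, 2 of sperm and 2 of 1-cell embryos, are part of a series of 8 that also covers oocytes and 2-cell embryos and follows the passage from oocyte to embryo. The labels give every library the strain TX189(OMA-1::GFP), which carries a GFP fusion of the oocyte protein OMA-1, and a temperature of 24 degrees C, and state no age. For sperm, the protocol instead names males from a fog-2(q71) background, which were cut open. Their sperm was filtered through nylon mesh and activated with Pronase, a mixture of proteases. The 1-cell embryos were collected by fluorescence-activated sorting. For oocytes, whose levels are set beside some genes below, the protocol names N2. Strain, sex of the source animal and collection method cannot be told apart from the stage. Nothing says that replicates came from separate cultures, so p-values measure only the spread between these libraries, which may be technical.

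Nematode sperm have no flagellum and crawl with a pseudopod built on filaments of major sperm protein (MSP) instead of actin. Transcription ends during spermatogenesis before the spermatids form, and ribosomes, actin and most tubulin are left behind in a residual body, so RNA in sperm was made earlier. The zygote runs largely on mRNA stored in the oocyte, and its own genome is almost silent until later divisions. Sperm RNA that enters the egg at fertilization adds to this maternal store.

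Replicates of sperm lay further apart than those of 1-cell embryos, with a median SD of 0.426 against 0.302 on the log2(RPKM + 1) scale. The rough depth, inferred from the size of 1 read among low genes, was about 20180000 and 69980000 reads in sperm and about 20650000 and 35080000 reads in 1-cell embryos. Transcripts abundant in 1-cell embryos were mostly higher in sperm replicate 1 than in sperm replicate 2. Of 1530 transcripts with at least 100 RPKM in both 1-cell libraries, 1272 (83.1%) were higher in sperm replicate 1, with a median difference of 0.62 log2, and 331 (36.7%) of the 902 transcripts with at least 100 RPKM in both sperm libraries were. Transcripts that mark other tissues were present in both sperm libraries. Body wall muscle markers summed to 2723 and 7966 RPKM in sperm, against 18.8 and 6.84 RPKM in 1-cell embryos, and cuticle and hypodermis markers to 800.4 and 1731 RPKM in sperm, against 41.1 and 4.63 RPKM in 1-cell embryos.

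Sperm and zygote differed at most of the genes tested. By limma's moderated test with Benjamini-Hochberg adjustment over all 11489 genes (calls at an adjusted p under 0.05 with a difference of 1 or more on the log2 scale), 4095 genes (35.6%) were higher and 3680 (32%) lower in sperm than in 1-cell embryos, and 3714 were not called. Here and below, a fold change is sperm over 1-cell embryos on the log2(RPKM + 1) scale, which understates changes of low genes. These are RNA levels per library from bulk samples, in which fewer cells of a type and less RNA per cell cannot be told apart. After quantile normalization, which shifted the median of all genes by -0.40 log2, the split was 2968 higher and 4129 lower. Without sperm replicate 2 the genes lower in sperm numbered 1145, and without sperm replicate 1 they numbered 1690.

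The higher and the lower genes were spread differently over levels. Of the tested genes, 2958 reached 1 RPKM in both sperm libraries and in neither 1-cell library, and 2861 of these were called higher. The reverse pattern, 1 RPKM in both 1-cell libraries and in neither sperm library, held for 596 genes, of which 503 were called lower. Such genes pass the filter only through the group where they are high, so their calls were largely fixed by the choice and are descriptions. Among the 6757 genes at 1 RPKM or more in all 4 libraries, 847 were higher and 2838 lower in sperm. A difference of at least 100-fold was called for 428 genes higher and 18 genes lower in sperm. The sperm libraries were also more concentrated, with 42.5% and 42.7% of summed RPKM in their 100 most abundant genes, against 22.9% and 25.8% in 1-cell embryos.

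**Figure D1:**
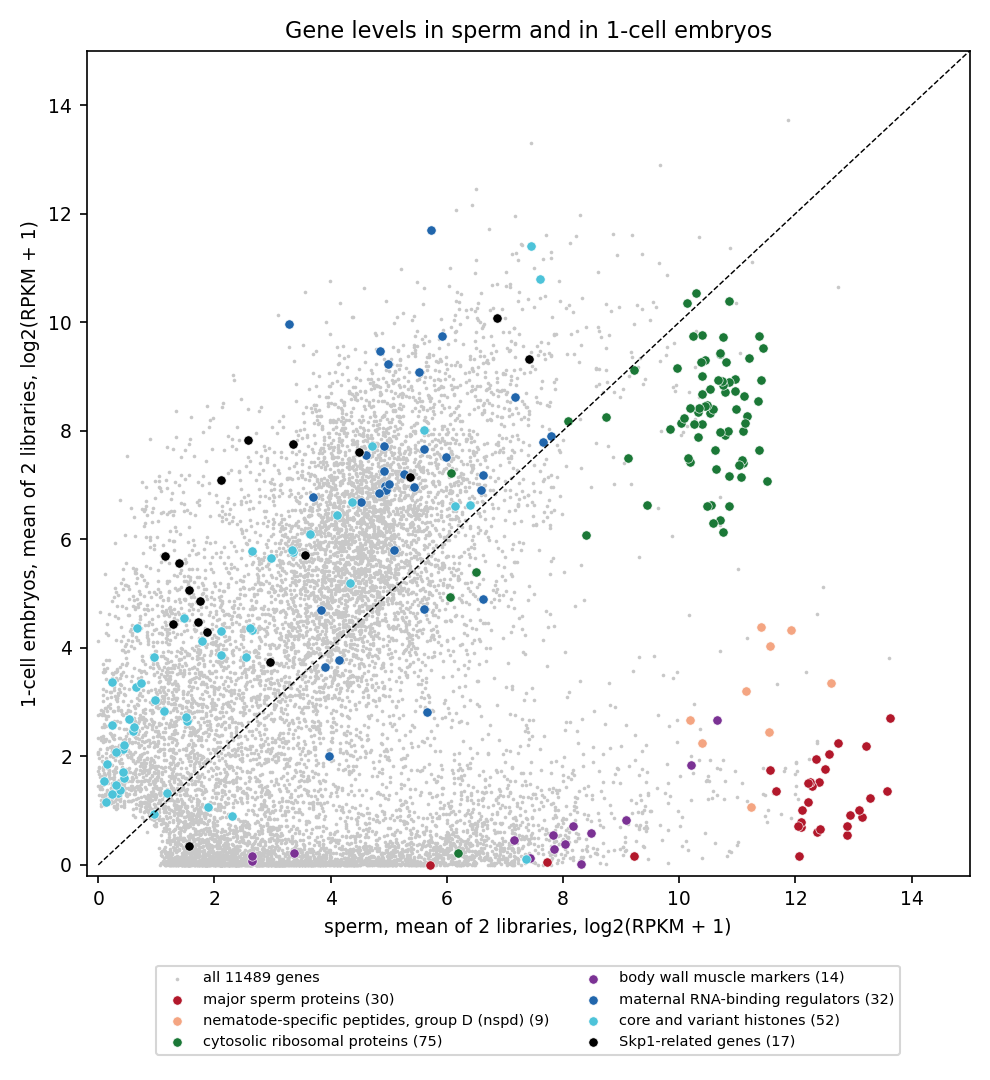
Mean level of each of the 11489 tested genes in sperm (horizontal axis) and 1-cell embryos (vertical axis), 2 libraries each, as log2 of the mean RPKM + 1, with the members of 7 gene lists coloured. Major sperm protein genes lie along the bottom right, and maternal RNA-binding regulators, histones and Skp1-related genes lie mainly above the dashed line of equal levels.

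The most abundant sperm transcripts encoded the proteins that build and move the sperm. MSP genes, whose product is both the motility filament of sperm and a signal that triggers oocyte maturation, summed to 173600 RPKM in each sperm library, which was 18.2% and 17.1% of all RPKM there. In 1-cell embryos they summed to 42.3 and 47.4 RPKM, or 0.00489% and 0.00514%. All 30 MSP genes in the table were called higher in sperm, against 35.6% of all genes, and their median log2 fold change was 11.04, against -0.11 over all genes. The copies are nearly identical in sequence, so how reads were divided among them is uncertain, and the sum is better determined than any member.

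Among the 30 members, the sperm level differed widely. The most abundant, msp-53, had 14400 and 11050 RPKM in sperm, against 5.72 and 5.33 RPKM in 1-cell embryos (log2 fold change 10.92, SE 0.51, adjusted p = 2.41e-08). The lowest was msp-74, with 46.4 and 55.7 RPKM in sperm and listed at 0 in both 1-cell libraries. The widest gap of all genes with at least 100 RPKM in sperm on the log2(RPKM + 1) scale was that of msp-10, at 7843 and 7328 RPKM in sperm and 0.387 and 0.533 RPKM in 1-cell embryos. Of the 10 most abundant genes in sperm, 9 were MSP genes, and the other was nspa-5, a nematode-specific peptide gene with 7449 and 17680 RPKM in sperm, against 6.34 and 19.7 RPKM in 1-cell embryos.

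Small MSP-domain proteins followed the MSP genes in direction. The ssp and msd genes encode proteins with an MSP-type domain or proteins that bind the MSP cytoskeleton. All 16 were called higher in sperm, against 35.6% of all genes, with a median log2 fold change of 8.45. They summed to 33620 and 41660 RPKM in sperm, against 100.9 and 98.2 RPKM in 1-cell embryos. Most of the 1-cell sum came from 3 members. These were ssp-16 (45.3 and 40.4 RPKM), msd-4 (20.7 and 26.6 RPKM) and ssp-35 (14.04 and 14.53 RPKM), which in sperm had 2155 and 1980 RPKM, 3517 and 7086 RPKM, and 1380 and 1935 RPKM. The table gives 2 IDs the symbol ssp-9, T28H11.6 and E03H12.10, with almost equal levels, and reads of such copies cannot be assigned with certainty. The nspd genes, short nematode-specific peptides expressed in spermatogenesis, were called higher in 9 of the 9 members tested (of 10 in the table), and summed to 17280 and 34840 RPKM in sperm, against 49.9 and 122.8 RPKM in 1-cell embryos.

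Sperm chromatin genes were as sharply divided. The protamine-like proteins SPCH-1, SPCH-2 and SPCH-3 package sperm DNA, and HTAS-1 is a sperm histone H2A. All 4 genes were called higher, against 35.6% of all genes, with a median log2 fold change of 10.44. The most abundant, spch-3, had 3736 and 3194 RPKM in sperm, against 0.929 and 0.886 RPKM in 1-cell embryos. A histone H3 variant gene, his-70, moved with them, at 124.8 and 201.9 RPKM in sperm, listed at 0 in 1-cell replicate 1 and at 0.1498 RPKM in replicate 2. Groups did not overlap for any of these genes. The share without overlap over all tested genes was not counted, so this does not set them apart.

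Genes for sperm surface, activation and organelles were called higher in most cases, with few exceptions. Of 8 genes for sperm surface proteins needed at fertilization, 7 were called higher and none lower, beside 35.6% and 32% of all genes. The gene spe-9, which encodes an EGF-repeat transmembrane protein needed for sperm to fertilize eggs, had 28.2 and 42.04 RPKM in sperm, against 0.0181 and 0.00708 RPKM in 1-cell embryos. For spe-41, a calcium channel of the TRP family, the values were 114.2 and 165.9 RPKM in sperm, against 0.910 and 0.720 RPKM in 1-cell embryos. The uncalled member was spe-36, which encodes a secreted sperm protein, with 14.4 and 21.6 RPKM in sperm and 15.9 and 72.5 RPKM in 1-cell embryos (log2 fold change -0.92, SE 0.71, adjusted p = 0.265).

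Activation genes act as spermatids become motile, and 11 of 13 were called higher and 1 lower, beside 35.6% and 32% of all genes. The presenilin gene spe-4 had 131.8 and 201.7 RPKM in sperm, against 0.717 and 0.668 RPKM in 1-cell embryos, and spe-46 had 182.5 and 404.1 RPKM in sperm, against 1.36 and 1.41 RPKM in 1-cell embryos. The casein kinase gene spe-6 was higher too, at 127.1 and 148.7 RPKM in sperm, but stood well above 0 in 1-cell embryos, at 10.02 and 7.56 RPKM. The lower member was zipt-7.1, a zinc transporter that acts in sperm activation, with 64.9 and 43.03 RPKM in sperm, against 215.5 and 165.1 RPKM in 1-cell embryos. Its oocyte levels were 158.0 and 154.7 RPKM. The call on zipt-7.1 was lost after quantile normalization and with either sperm library left out.

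Among 10 genes for membranous organelles, which fuse with the sperm surface at activation, and for motility, 7 were called higher, against 35.6% of all genes. The most abundant in sperm was spe-18, needed to assemble the fibrous bodies that hold MSP, with 1382 and 1219 RPKM in sperm, against 2.42 and 3.26 RPKM in 1-cell embryos. The 3 others, spe-39, nsf-1 and spe-5, encode trafficking factors and a proton pump subunit used by other cells as well, and none was called. Sperm held spe-39 at 28.5 and 23.3 RPKM, nsf-1 at 37.8 and 33.6 RPKM and spe-5 at 40.4 and 37.3 RPKM, inside or near the range in 1-cell embryos, which was 14.6 to 50.4 RPKM over the 3 genes. Of 6 sperm phosphatases and kinases, 5 were called higher, among them the PP1 phosphatase gene gsp-3 at 1366 and 1240 RPKM in sperm, against 4.73 and 4.55 RPKM in 1-cell embryos.

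Regulators of spermatogenesis act before sperm form, and 6 of 7 were called higher, against 35.6% of all genes. The Argonautes alg-3 and alg-4, which bind small RNAs and act in male germ cells, had at least 242.0 RPKM in each sperm library and at most 1.18 RPKM in each 1-cell library. The sex-determination genes fog-1 and fog-3, which direct germ cells to the sperm fate, were closer between the groups, with fog-3 at 120.5 and 73.6 RPKM in sperm, against 10.4 and 31.6 RPKM in 1-cell embryos. With either sperm library left out, 2 of the 7 regulators were called, and fog-3 was not.

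Proteins carried into the egg by sperm are known to include SPE-11, an eggshell and polar body factor, and the centriole proteins SAS-4 and SAS-6. The spe-11 transcript had 323.9 and 875.6 RPKM in sperm, against 3.60 and 2.01 RPKM in 1-cell embryos (log2 fold change 7.17, SE 0.62, adjusted p = 1.69e-06). Neither sas-4 nor sas-6 was called. For sas-6 the levels were 55.8 and 70.3 RPKM in sperm and 72.3 and 97.9 RPKM in 1-cell embryos, close together in both groups but without overlap.

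**Figure D2:**
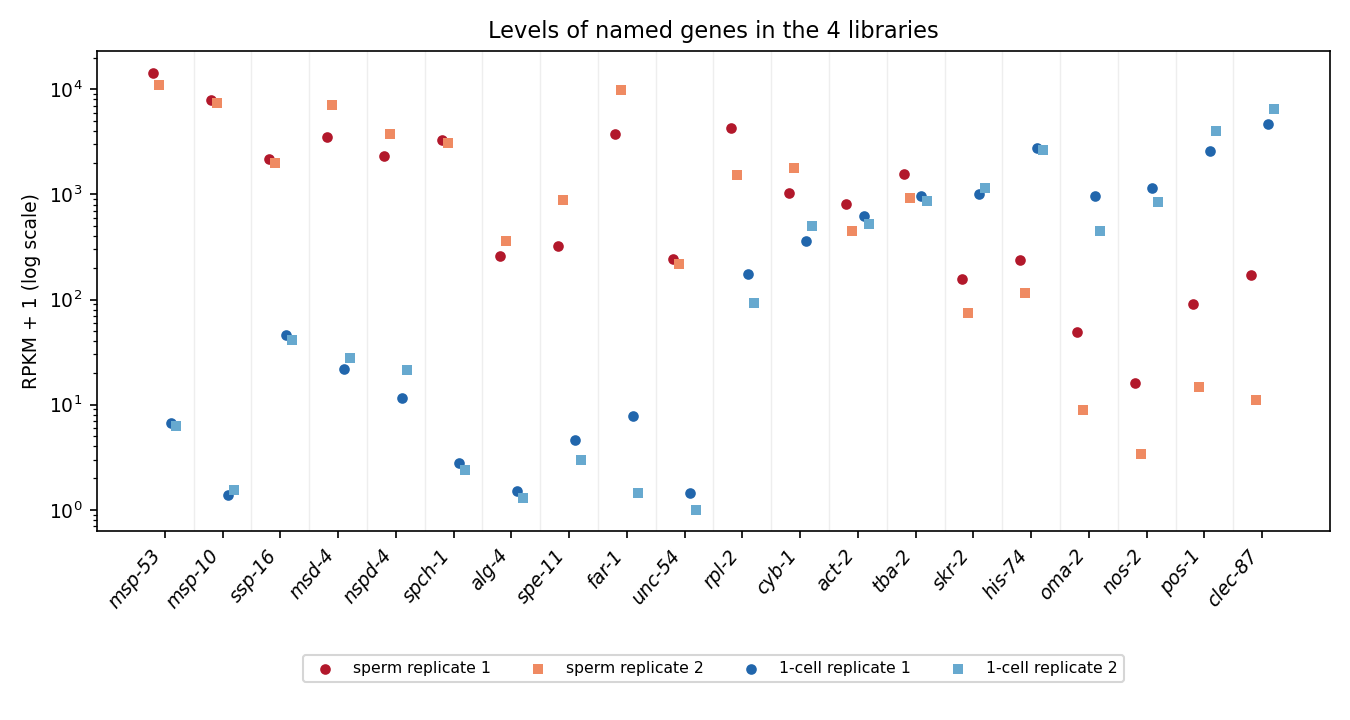
Level of 20 named genes in each of the 4 libraries, as RPKM + 1 on a log scale, with 2 sperm libraries to the left of 2 1-cell libraries for each gene. The 8 sperm genes at the left stand at 258.5 RPKM or more in sperm and at 45.3 RPKM or less in 1-cell embryos, act-2 and tba-2 lie close together, and maternal genes at the right are lower in sperm replicate 2 than in sperm replicate 1.

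The abundant transcripts of sperm were then looked up in the 1-cell libraries. Whether their reads there came from RNA brought in by sperm was not tested. At least 100 RPKM in both sperm libraries was reached by 902 genes. In 1-cell embryos, 586 of them (64.97%) had at least 1 RPKM in both libraries, 405 (44.9%) at least 10 RPKM and 291 (32.3%) at least 100 RPKM. Another 83 (9.2%) reached 1 RPKM in only 1 of the 2 1-cell libraries. Under 1 RPKM in both were 233 (25.8%), and of these 6 (0.665%) were listed at 0 in both.

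Most of the transcripts seen at 10 RPKM or more in the zygote were also in the oocyte. The 902 genes were divided by their oocyte libraries into 446 with under 1 RPKM in both and 456 others. Of the 456 others, 401 had at least 10 RPKM in both 1-cell libraries, and of the 446 low in oocytes 4 did. The oocyte columns held far fewer values of 0 (2.48% and 2.93% of genes) than those of sperm (18.8% and 12.7%) or 1-cell embryos (27.02% and 28.6%), and the sources used here do not say why, so small oocyte values may not be comparable. For the 446 genes a level in the zygote has no oocyte level of 1 RPKM or more beside it.

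Traces of nearly all these 446 transcripts were listed in 1-cell embryos. Both 1-cell libraries were above 0 for 425 of them, 145 had at least 1 RPKM in both, and for 370 both 1-cell values lay above both oocyte values. Choosing genes low in oocytes favours the last count, and its share over all tested genes was not counted. As small oocyte values may not be comparable either, this count does not show a rise from oocyte to zygote. The level was a small part of that in sperm. As a share of the sperm mean, the median over the 446 was 0.209% in 1-cell replicate 1 and 0.135% in 1-cell replicate 2, with the central 90% of genes between 0.00765% and 1.36% in replicate 1 and between 0.0097% and 1.44% in replicate 2. At least 1% of the sperm mean in both libraries was held by 21 genes. The 446 also hold body wall muscle markers, with shares of similar size. For mlc-3 the share was 0.254% and 0.0348%, and for mlc-1 it was 0.222% and 0.0588%.

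**Figure D3:**
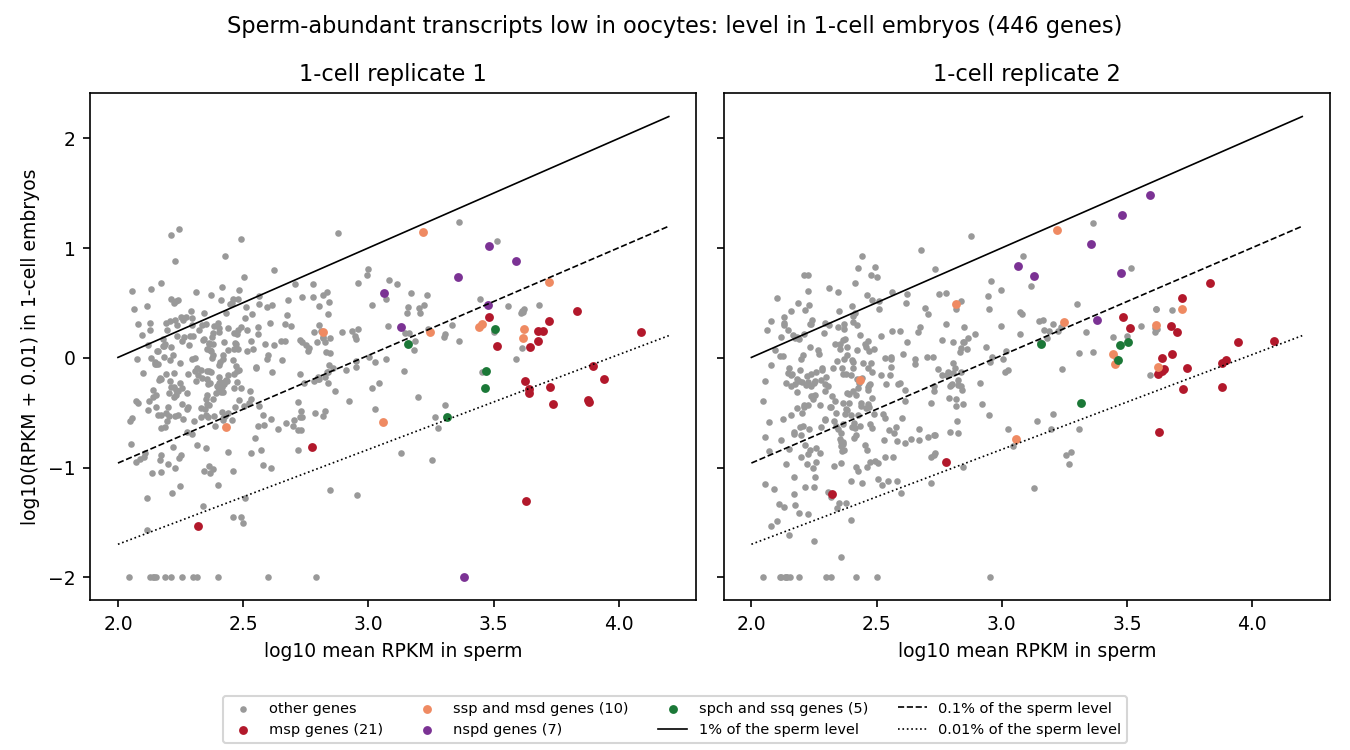
The 446 transcripts that each sperm library held at 100 RPKM or more and each oocyte library at under 1 RPKM, with the log10 of the sperm mean RPKM on the horizontal axis and log10(RPKM + 0.01) in each 1-cell library on the vertical axis. The lines mark 1%, 0.1% and 0.01% of the sperm level, and at like sperm levels the msp, spch and ssq genes lie under the 0.1% line and the nspd genes mostly above it; genes at the bottom edge are listed at 0.

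The median share differed between families of sperm genes and was lowest for MSP genes in both 1-cell libraries, but ranges of several families overlapped. Over 21 MSP genes of this set the median share was 0.0139% and 0.0173%, with 0.0781% the highest. Over 10 ssp and msd genes it was 0.0773% and 0.0503%, and over 7 nspd genes 0.196% and 0.48%. The ssp and msd genes ran from 0.0221% to 0.847% in 1-cell replicate 1 and from 0.0152% to 0.877% in replicate 2. The nspd genes ran from 0% to 0.346% and from 0.091% to 0.787%. The limit of under 1 RPKM in oocytes left out other members, among them msd-4, at 0.391% and 0.501%. Over 5 spe and fer genes the median share was 0.463% and 0.4%, over 2 spch genes 0.035% and 0.0307%, and over 3 ssq genes 0.0252% and 0.0443%. Chosen after its values were seen, ssp-35 stood at 14.04 and 14.53 RPKM in 1-cell embryos. Of the MSP genes, msp-10, named for its wide gap, had 0.387 and 0.533 RPKM there and msp-53 had 5.72 and 5.33 RPKM. A share divides by the sperm level, and the part of that level in the order of the families was not tested. The families were read off the gene names after the values were known and were not tested.

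Among abundant sperm transcripts with the highest levels in the zygote and almost none in oocytes, ssp-16 had 2155 and 1980 RPKM in sperm, against 45.3 and 40.4 RPKM in 1-cell embryos, while its oocyte levels were 1.18 and 0.228 RPKM. Similar values were found for msrp-2, with 3652 and 7681 RPKM in sperm, against 20.4 and 47.2 RPKM in 1-cell embryos and 1.64 and 0.148 RPKM in oocytes. Both reached 1 RPKM in an oocyte library, so neither is among the 446 genes. Within the 446, other genes led by share of the sperm level in the lower 1-cell library, again picked after their values were seen. The transcript of sams-5, an S-adenosylmethionine synthetase, had 294.4 and 326.9 RPKM in sperm and 12.1 and 6.78 RPKM in 1-cell embryos, or 3.9% and 2.18% of the sperm mean. For pei-2 the shares were 2.12% and 3.5%. The uncharacterized gene F58D5.7 held 3.17% and 2.45%, at 8.45 and 6.53 RPKM in 1-cell embryos and 0.353 and 0.122 RPKM in oocytes.

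At the other end, several of the most abundant sperm transcripts were nearly undetected. The lowest share above 0 among the MSP genes was that of msp-38, with 3751 and 4747 RPKM in sperm, against 0.0398 and 0.199 RPKM in 1-cell embryos. For msp-10 both 1-cell values lay between its oocyte values of 0.748 and 0.0288 RPKM. These values are too far apart to place the zygote above or below the oocyte. The 6 transcripts listed at 0 in both 1-cell libraries were Y53H1B.2, Y54E2A.9, basl-1, K12H6.9, scl-15 and C48B4.12, the last named after its values were seen. The highest of them in sperm was Y53H1B.2, with 123.3 and 275.7 RPKM. A value of 0 means that no read was listed at these depths and not that the transcript was absent.

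Transcripts abundant in the zygote were, by contrast, almost all present in sperm libraries. Of the 1530 genes with at least 100 RPKM in both 1-cell libraries, 1491 (97.5%) reached 1 RPKM in each sperm library and 1338 (87.5%) reached 10 RPKM. The other 39 were split, with 1 RPKM reached in a single sperm library, and none was under 1 RPKM in both. In sperm, 30 of the 1530 were under 5 RPKM in both libraries. Among these, T27A8.2 had 1.68 and 0.0214 RPKM in sperm, against 186.5 and 269.6 RPKM in 1-cell embryos, and the T-box gene tbx-9 had 3.79 and 0.210 RPKM in sperm, against 290.5 and 165.6 RPKM in 1-cell embryos. For 29 of the 30 the higher sperm library was replicate 1. With sperm replicate 2 alone, 2.55% of the 1530 were under 1 RPKM, and with sperm replicate 1 alone 0%.

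The 10 most abundant transcripts of the zygote were all called lower in sperm. They included the small heat shock gene sip-1, which is expressed in oocytes and embryos, the cyclophilin gene cyn-7, the C-type lectin gene clec-87, the Y-box RNA-binding protein genes cey-2 and cey-3, and pos-1. The transcript of clec-87 had 169.6 and 10.01 RPKM in sperm, against 4678 and 6473 RPKM in 1-cell embryos (log2 fold change -6.99, SE 0.94, adjusted p = 3.91e-05). The call on sip-1 was weak, with 6193 and 1340 RPKM in sperm and 21730 and 5354 RPKM in 1-cell embryos, groups that overlapped, and an adjusted p of 0.0478. It was lost under 10 of the 14 alternatives. The uncharacterized F23A7.8 differed more between the 1-cell libraries, at 1265 and 19020 RPKM, than sip-1 did, and its call was lost with either sperm library left out.

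Maternal RNA-binding regulators hold stored mRNAs silent or place them in the right cell. They were lower in sperm for 20 of 32 genes and higher for 3, beside 32% and 35.6% of all genes. Their median log2 fold change was -2.05. Their sums were 2466 and 915.2 RPKM in sperm, against 9820 and 10540 RPKM in 1-cell embryos. The nanos homolog nos-2, a germ cell factor, had 14.97 and 2.41 RPKM in sperm, against 1143 and 850.8 RPKM in 1-cell embryos. The zinc finger gene pos-1, needed for posterior cell fates, had 90.1 and 13.8 RPKM in sperm, against 2566 and 4042 RPKM in 1-cell embryos. The oocyte maturation gene oma-2 had 47.96 and 7.84 RPKM in sperm, against 964.0 and 451.1 RPKM in 1-cell embryos.

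In each of these genes sperm replicate 1 was the higher sperm library. Of the 32 regulators, 5 were called lower without sperm replicate 2, where oma-2 lost its call, and 16 without sperm replicate 1. The 3 members higher in sperm were gld-2, a cytoplasmic poly(A) polymerase, the translational repressor fbf-2 and larp-1, and 0 were called higher with either sperm library left out. For gld-2 the values were 53.3 and 45.3 RPKM in sperm, against 9.04 and 3.12 RPKM in 1-cell embryos. Called neither way were cgh-1 and car-1, whose proteins form maternal RNA granules, with car-1 at 321.0 and 122.3 RPKM in sperm and 211.4 and 263.3 RPKM in 1-cell embryos.

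Eggshell, fertilization and egg activation genes, which serve the egg side of the same event, were lower in sperm for 9 of 20 and higher for 3, beside 32% and 35.6% of all genes. The counts were 1 lower and 2 higher without sperm replicate 2, and 7 lower and 1 higher without sperm replicate 1. The chitin-pathway gene gna-2 had 19.2 and 12.2 RPKM in sperm, against 490.2 and 228.8 RPKM in 1-cell embryos, and the chondroitin proteoglycan gene cpg-3 had 43.8 and 5.92 RPKM in sperm, against 567.1 and 541.7 RPKM in 1-cell embryos. The sums of the list were 1444 and 458.2 RPKM in sperm, against 4299 and 3061 RPKM in 1-cell embryos. The members higher in sperm were perm-2, perm-4 and gfat-1. The perm-2 and perm-4 genes encode proteins that the eggshell permeability barrier needs. For perm-4 the values were 82.3 and 4.01 RPKM in sperm, against 0.717 and 0.227 RPKM in 1-cell embryos. In sperm replicate 1 the eggshell, yolk and maternal lists were all higher than in replicate 2, and the part of this in the result was not tested.

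Genes of the first divisions were divided. Of 30 cyclins, mitotic kinases and checkpoint genes, 15 were lower and 3 higher in sperm, beside 32% and 35.6% of all genes. Leaving out sperm replicate 2 left 2 lower and 0 higher, and leaving out sperm replicate 1 left 7 lower and 1 higher. The cyclin B genes cyb-2.1, cyb-2.2 and cyb-3, which drive mitosis, were lower, with cyb-2.2 at 70.0 and 45.2 RPKM in sperm, against 1195 and 445.7 RPKM in 1-cell embryos. The call on cyb-2.2 was lost with either sperm library left out, and that on cyb-3 without sperm replicate 2. Another B-type cyclin, cyb-1, was higher, at 1031 and 1771 RPKM in sperm, against 363.1 and 494.2 RPKM in 1-cell embryos (log2 fold change 1.67, SE 0.53, adjusted p = 0.0139). The call on cyb-1 was lost with sperm replicate 2 or either 1-cell library left out, and without the filter on low values. The phosphatase gene cdc-25.3, which is on no list, was among the largest differences, at 5.16 and 0.200 RPKM in sperm, against 461.9 and 235.4 RPKM in 1-cell embryos.

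Polarity and spindle genes did not move one way. Of 26 polarity and spindle positioning genes, 8 were higher and 5 lower in sperm, and of 28 centrosome and spindle genes, 8 were higher and 6 lower, shares that all lie below those over all genes. Among the lower genes were the 14-3-3 gene par-5, at 720.7 and 444.0 RPKM in sperm, against 3441 and 2789 RPKM in 1-cell embryos, and the katanin subunits mei-1 and mei-2, which sever microtubules in the meiotic spindle. The call on mei-1 was lost with either sperm library left out, and that on mei-2 without sperm replicate 2. Of the polarity genes, 1 was called higher and 2 lower without sperm replicate 2, and 2 in each direction without sperm replicate 1. Of the centrosome and spindle genes, 2 were called higher and 0 lower without sperm replicate 2, and 1 higher and 2 lower without sperm replicate 1. Of 13 embryonic cell fate genes 5 were lower and 1 higher, beside 32% and 35.6% of all genes. Fewer were called in each direction with either sperm library left out. The lower ones were led by the homeobox gene pal-1 at 17.95 and 6.18 RPKM in sperm, against 501.0 and 211.1 RPKM in 1-cell embryos, a call lost without sperm replicate 2. The higher one was gsk-3, a kinase of the Wnt pathway, at 97.3 and 62.9 RPKM in sperm, against 7.77 and 2.53 RPKM in 1-cell embryos, and its call was lost with either sperm library left out.

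P granules are RNA-rich bodies of the germ line, and 6 of 17 of their genes were lower and 3 higher in sperm, with the lower share near the 32% of all genes. In this list 1 was called lower and 1 higher without sperm replicate 2, and 2 lower and 1 higher without sperm replicate 1. The genes meg-1 to meg-4, which assemble the granules in the embryo, were all lower, with meg-1 at 5.07 and 0.458 RPKM in sperm, against 95.7 and 165.0 RPKM in 1-cell embryos. The helicase gene glh-1 was higher, at 250.8 and 186.0 RPKM in sperm, against 20.95 and 26.3 RPKM in 1-cell embryos. Of 36 meiotic chromosome genes, 14 were lower and 1, the checkpoint kinase gene chk-2, was higher in sperm. Over all genes 32% were lower and 35.6% higher. The synaptonemal complex gene syp-2 had 32.5 and 20.4 RPKM in sperm, against 327.3 and 109.6 RPKM in 1-cell embryos. Of the 36, 1 was called lower without sperm replicate 2 and 2 without sperm replicate 1, with 0 called higher in both cases, and syp-2 lost its call in both.

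Argonautes, which carry small RNAs to their targets, included genes of both kinds, with 7 of 20 higher and 5 lower, near and below the 35.6% and 32% of all genes. With either sperm library left out 4 were called higher, and 0 were called lower without sperm replicate 2 and 3 without sperm replicate 1. Besides alg-3 and alg-4, wago-10 was higher, at 51.5 and 50.1 RPKM in sperm, against 0.0152 and 0.00893 RPKM in 1-cell embryos. The germline gene csr-1 was higher as well, at 156.8 and 117.0 RPKM in sperm, against 24.7 and 12.7 RPKM in 1-cell embryos, but lost its call with either sperm library left out. Lower were nrde-3, alg-2, alg-5, ergo-1 and vsra-1, with alg-5 at 18.02 and 9.55 RPKM in sperm, against 81.2 and 70.3 RPKM in 1-cell embryos. The piRNA Argonaute prg-1 was not called, at 229.1 and 128.1 RPKM in sperm and 115.5 and 54.4 RPKM in 1-cell embryos.

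**Figure D4:**
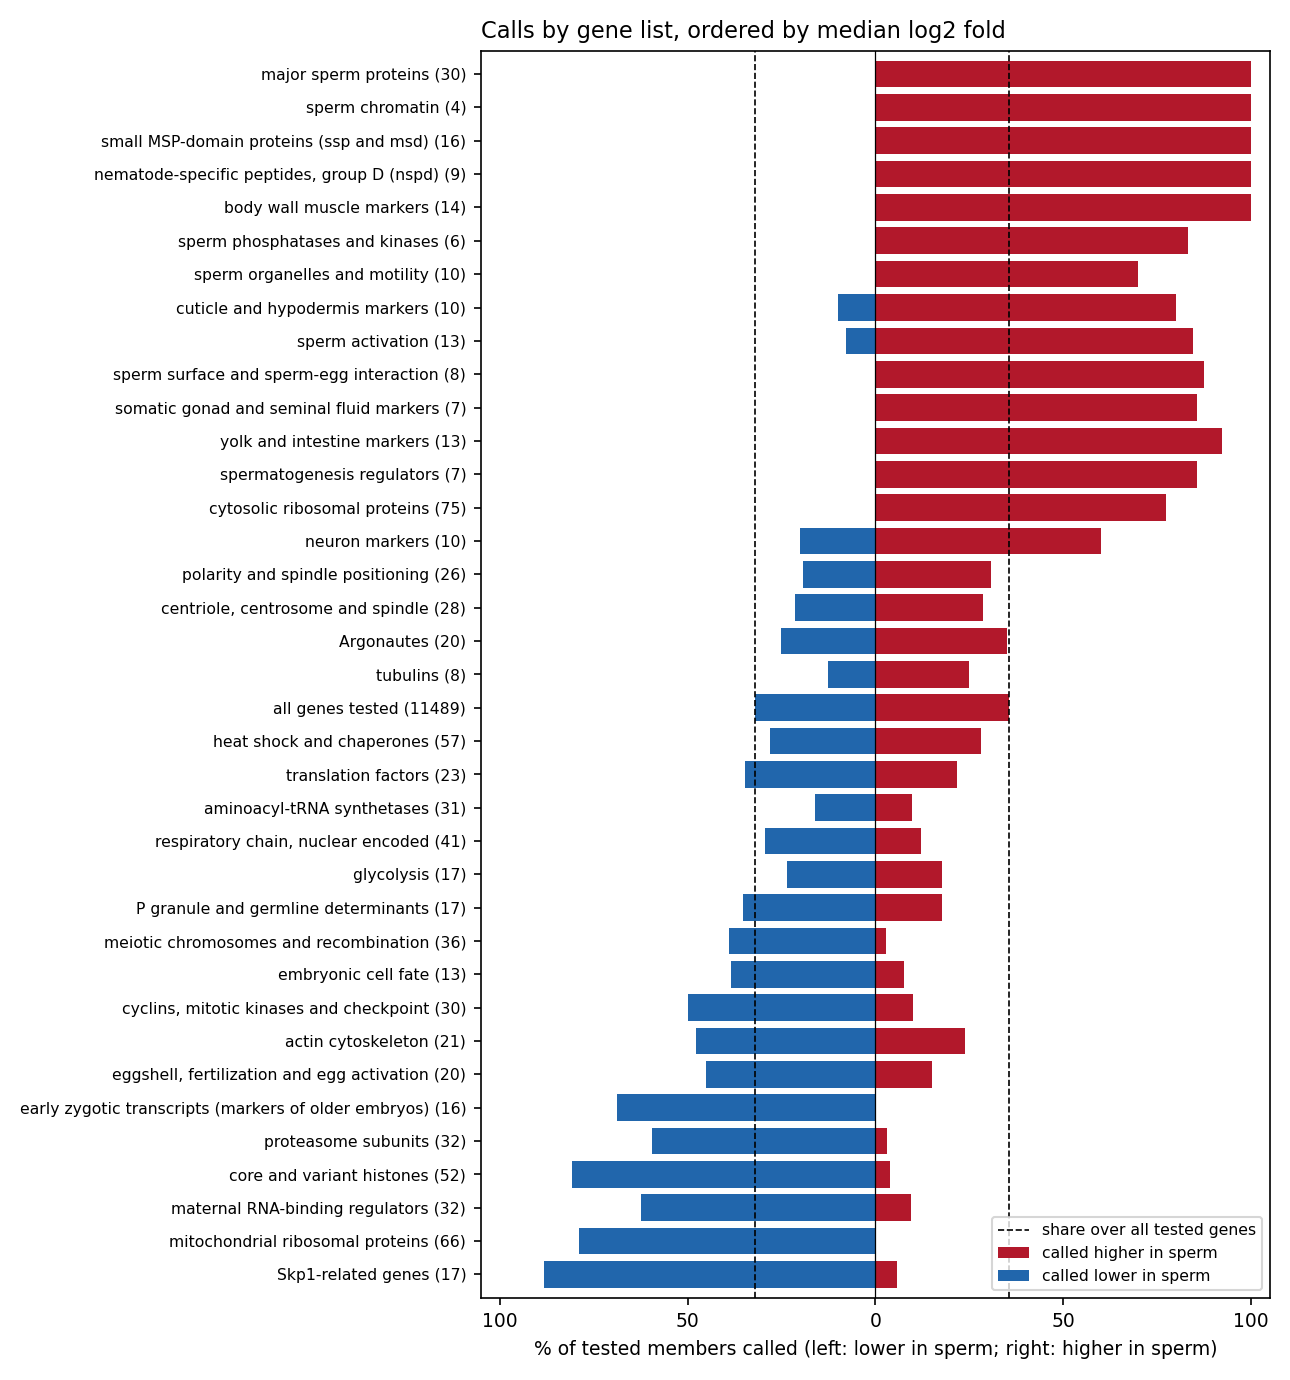
Share of the tested members of each gene list called higher (right, red) or lower (left, blue) in sperm than in 1-cell embryos, with the number tested in brackets and lists ordered by their median log2 fold change. The dashed lines are the shares over all tested genes, 35.6% higher and 32% lower, and the lists of sperm structure lie at the top with 100% of members higher for the MSP, sperm chromatin, ssp and msd, and nspd lists, followed by body wall muscle markers, also at 100%.

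Cytosolic and mitochondrial ribosomal protein genes moved in opposite directions. Cytosolic ribosomal protein genes were higher in sperm for 58 of 75 and lower for none, with a median log2 fold change of 1.99. They summed to 151300 and 77170 RPKM in sperm (15.9% and 7.61% of all RPKM), against 26110 and 31050 RPKM in 1-cell embryos (3.02% and 3.36%). The large-subunit gene rpl-2 had 4300 and 1514 RPKM in sperm, against 174.6 and 91.5 RPKM in 1-cell embryos. Sperm replicate 1 held the larger sum, and 26 of the 75, rpl-2 not among them, were called without it, 49 without sperm replicate 2, and 18 without the filter on low values. Translation factor genes, which are cytosolic too, were higher for 5 of 23 and lower for 8, beside 35.6% and 32% of all genes. Their median log2 fold change was -0.46. These counts became 2 higher and 4 lower without sperm replicate 2, and 0 higher and 5 lower without sperm replicate 1. The initiation factor gene eif-1.A was lower, at 116.7 and 103.7 RPKM in sperm, against 659.5 and 617.4 RPKM in 1-cell embryos. The elongation factor gene eef-1A.1 was higher, at 9376 and 4207 RPKM in sperm, against 1844 and 1380 RPKM in 1-cell embryos. The call on eef-1A.1 was lost without sperm replicate 1, with either 1-cell library left out, after quantile normalization and without the filter on low values.

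Mitochondrial ribosomal protein genes serve translation inside mitochondria. They were lower for 52 of 66 and higher for none, beside 32% and 35.6% of all genes. Their median log2 fold change was -2.42. Their sums were 2096 and 1273 RPKM in sperm, against 10520 and 10260 RPKM in 1-cell embryos. The gene mrpl-36 had 31.98 and 24.8 RPKM in sperm, against 347.2 and 1426 RPKM in 1-cell embryos. Lower calls numbered 12 without sperm replicate 2 and 28 without sperm replicate 1, and mrpl-36 lost its call in both cases. Of 41 nuclear-encoded respiratory chain genes, 5 were higher and 12 lower, both below the shares over all genes. With sperm replicate 2 left out 3 were called higher and 1 lower, and with sperm replicate 1 left out 3 higher and 4 lower. The highest fold among them was that of the cytochrome c gene cyc-2.2, at 685.1 and 1302 RPKM in sperm, against 6.51 and 4.17 RPKM in 1-cell embryos.

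Core and variant histone genes were lower in sperm for 42 of the 52 tested, of 69 in the table, and higher for 2. Of all genes, 32% were lower and 35.6% higher. Most replication-dependent histone mRNAs lack a poly(A) tail, so that polyadenylated RNA samples them poorly, and near-identical copies share reads. The histone H3.3 genes his-72 and his-74 accounted for most of the histone RPKM in 1-cell embryos, with his-74 at 234.6 and 114.4 RPKM in sperm, against 2747 and 2657 RPKM in 1-cell embryos. Without sperm replicate 2, 17 of the 52 were called lower. Skp1-related genes, which encode adaptors of SCF ubiquitin ligases, were lower for 15 of 17 tested and higher for 1. Of these, 7 were called lower without sperm replicate 2 and 12 without sperm replicate 1, with 0 called higher in both cases. The pair of highest level was skr-1 and skr-2, with skr-2 at 157.4 and 73.4 RPKM in sperm, against 1002 and 1147 RPKM in 1-cell embryos. The Skp1-related gene skr-15 had 9.79 and 0.182 RPKM in sperm, against 223.6 and 228.6 RPKM in 1-cell embryos.

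Proteasome subunit genes were lower for 19 of 32 and higher for 1, beside 32% and 35.6% of all genes. The lower calls numbered 6 without sperm replicate 2 and 10 without sperm replicate 1. The core subunit gene pas-5 had 155.9 and 102.4 RPKM in sperm, against 1391 and 1852 RPKM in 1-cell embryos. The higher one was rpn-6.2, a paralog of the lid subunit gene rpn-6.1, at 95.9 and 125.8 RPKM in sperm, against 8.98 and 10.8 RPKM in 1-cell embryos. A like pair of paralogs, singled out after its values were seen, encodes phosphofructokinase of glycolysis. For pfk-1.2 the levels were 64.6 and 113.8 RPKM in sperm, against 0.1502 and 0.141 RPKM in 1-cell embryos, and for pfk-1.1 they were 6.32 and 13.5 RPKM in sperm, against 33.8 and 75.6 RPKM in 1-cell embryos.

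Cytoskeletal genes included some of like level in both groups. Of 10 transcripts with at least 100 RPKM in all 4 libraries and the smallest fold changes, one was the actin gene act-2, at 800.3 and 447.0 RPKM in sperm and 625.7 and 521.0 RPKM in 1-cell embryos (log2 fold change 0.07, SE 0.53, adjusted p = 0.919). The alpha-tubulin gene tba-2 was not called, with 1555 and 930.7 RPKM in sperm and 954.9 and 864.5 RPKM in 1-cell embryos. With an SE near 0.5 log2 and 2 libraries a group, such values do not show that levels were equal. Of 21 actin cytoskeleton genes, 10 were lower and 5 higher in sperm, with 4 lower when either sperm library was left out, 2 higher without sperm replicate 1 and 0 higher without sperm replicate 2. The shares over all genes were 32% lower and 35.6% higher. The lower genes included arx-7, a subunit of the actin-nucleating Arp2/3 complex. It had 31.3 and 13.8 RPKM in sperm, against 288.8 and 294.2 RPKM in 1-cell embryos. The actin gene act-4 was higher, at 1121 and 1166 RPKM in sperm, against 38.9 and 7.49 RPKM in 1-cell embryos, and it is expressed in body wall muscle, whose markers were also high in the sperm libraries. Its call was lost with either sperm library left out.

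Markers of several other tissues were higher in sperm than in 1-cell embryos. Of all genes, 35.6% were called higher. All 14 body wall muscle markers tested, of 18 in the table, were called higher, and of the other 4 the pharyngeal myosin genes myo-1 and myo-2 stood at or under 0.206 RPKM in every library. The myosin heavy chain gene unc-54 had 239.8 and 215.3 RPKM in sperm, against 0.449 and 0.00524 RPKM in 1-cell embryos. The fatty acid-binding gene far-1, which is on no list, was at 3731 and 9881 RPKM in sperm, against 6.88 and 0.449 RPKM in 1-cell embryos. Adult cuticle collagens were among the 8 of 10 cuticle and hypodermis markers called higher, while the collagen genes rol-6 and sqt-1 stood at or under 0.400 RPKM in every library.

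Yolk and intestine markers summed to 928.2 and 236.6 RPKM in sperm, against 5.05 and 2.47 RPKM in 1-cell embryos, and 12 of 13 tested were called higher. The yolk gene vit-2, made in the intestine of adult hermaphrodites and females, had 44.95 and 0.9996 RPKM in sperm, and 0.149 RPKM and a listed 0 in 1-cell embryos. Of 7 somatic gonad and seminal fluid markers 6 were higher, among them ins-37 at 100.8 and 80.2 RPKM in sperm, against 0.704 and 0.590 RPKM in 1-cell embryos. Of 10 neuron markers tested, 6 were higher and 2 lower in sperm, beside 35.6% and 32% of all genes, with a median log2 fold change of 1.53. They summed to at most 163.8 RPKM in a sperm library, against 402.4 and 631.6 RPKM in 1-cell embryos, with nearly all of the 1-cell sum from unc-119 and snb-1. The part of these tissues in the genes higher in sperm was not tested. MSP, ssp and msd, nspd and sperm chromatin lists kept the same counts of members called higher when either sperm library was left out. So did the body wall muscle, cuticle and hypodermis, and somatic gonad and seminal fluid lists, so this does not set the sperm lists apart.

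**Figure D5:**
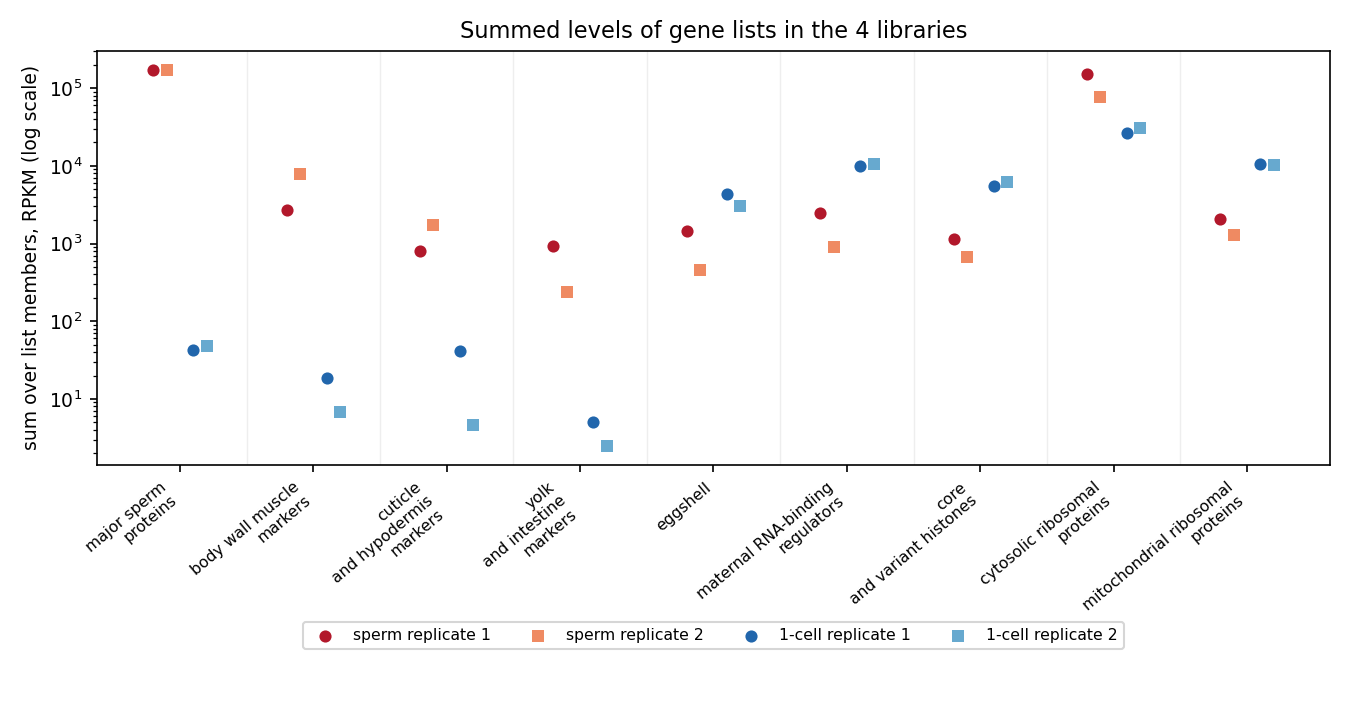
Summed RPKM of 9 gene lists in each of the 4 libraries, on a log scale, with the 2 sperm libraries to the left of the 2 1-cell libraries. Muscle and cuticle markers were higher in sperm replicate 2, yolk, eggshell and maternal genes were higher in sperm replicate 1, and the MSP sums of the sperm libraries were equal at 173600 RPKM.

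Markers of older embryos were higher in the 1-cell libraries than in sperm but mostly low there. Of 16 early zygotic transcripts tested, of 29 in the table, 11 were lower in sperm, and 7 without sperm replicate 2. The share lower over all genes was 32%. The list summed to 40.7 and 14.8 RPKM in sperm, against 639.5 and 325.9 RPKM in 1-cell embryos. Of the 1-cell sums, 501.0 and 211.1 RPKM came from pal-1, which is also supplied by the mother. Apart from pal-1, the highest was hnd-1, a transcription factor gene, at 0.468 RPKM and a listed 0 in sperm, against 37.5 and 25.4 RPKM in 1-cell embryos. The endoderm gene end-3 had 0.0584 and 0.201 RPKM in sperm, against 2.03 and 2.32 RPKM in 1-cell embryos. The collagen gene sqt-3, which later embryos express, had 2.72 and 0.655 RPKM in sperm, against 25.97 and 1.84 RPKM in 1-cell embryos. The part of older embryos in the 1-cell values was not tested.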

How the data were processed

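Polyadenylated RNA was sequenced from 2 sperm and 2 1-cell embryo libraries. The authors deposited RPKM values per gene for the 8 libraries of the series, and the submitters' processing notes name BWA for alignment. The BWA version, the counting tool, its strand setting, the genome build and the annotation are not given in the sources used here. Depth was estimated roughly by multiplying low RPKM values by transcript length and taking the most frequent result as 1 read. Gene symbols were matched by sequence name, and strand-overlapping or near-identical genes may share reads.

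Genes with at least 1 RPKM in 2 of the 4 libraries were compared by limma 3.58.1 (R 4.3.3) on log2(RPKM + 1), with trended empirical Bayes, 2 residual degrees of freedom and two-sided p-values adjusted by Benjamini-Hochberg. Calls combine an adjusted p below 0.05 with a log2 fold change of 1 or more in size. Members and the 37 gene lists were chosen with earlier results of these data known. A member that passed the filter only through the group where it is high had to differ, so list counts are descriptions. Named genes are the 10 most abundant of each group, the 10 largest folds each way among genes of at least 100 RPKM, up to 4 called members a list, up to 5 of each abundance class and the 10 smallest folds. Other genes named were chosen after their values were seen. Alternatives were other scalings, pseudocounts of 0.1 and 5, other filters, fits with 6 or 8 libraries, a replicate block and each library left out.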

Additional observations from a re-analysis of the deposited data

How the results depend on the processing

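Of 192 called named genes, 118 were called under each of the 14 alternatives, and the others lost the call mainly without sperm replicate 2 (59 genes), without the filter on low values (49) or without sperm replicate 1 (41). Genes higher in sperm numbered 2108 at a mean of at least 10 RPKM, where fewer genes were tested. Genes lower in sperm numbered 2092 without the filter, and the cause was not tested. With single libraries left out, the counts ran from 3371 to 3898 higher and from 1145 to 3210 lower, with a lone sample assumed to vary like the other group. The replicate numbers did not pair the samples (correlation of same-numbered deviations across genes 0.0882), and the replicate block gave 4156 higher and 3864 lower. Abundant sperm transcripts numbered 1739 at 50 RPKM, with 1.38% listed at 0 in both 1-cell libraries, and 455 at 200 RPKM, with 0% at 0. Leaving out single libraries gave 902 to 1259 such transcripts and 0.551% to 1.77% at 0. With 0.5 RPKM as the level seen, 15.4% were under it in both 1-cell libraries. Abundant 1-cell transcripts numbered 2539 at 50 RPKM, of which 0.197% were under 1 RPKM in both sperm libraries, and 780 at 200 RPKM. At 2 RPKM as the level seen the share was 0.458%, and with single libraries left out it ran from 0% to 2.55%. The median level in 1-cell embryos of the 446 sperm transcripts low in oocytes was 0.173% of the sperm level and ran from 0.135% to 0.246% with single libraries left out, an alternative chosen after seeing the data. With 2 libraries a group, a missed call does not show equal levels.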

Other observations

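The 2-cell embryo libraries, which enter no comparison above, held the same sperm transcripts at like levels. Of the 446 transcripts that both sperm libraries held at 100 RPKM or more and both oocyte libraries at under 1 RPKM, 149 had at least 1 RPKM in both 2-cell libraries and 145 in both 1-cell libraries, and 127 did so in all 4 embryo libraries. In both 2-cell libraries 6 were listed at 0. The median share of the sperm mean was 0.282% in 2-cell replicate 1 and 0.142% in 2-cell replicate 2. Deviations of same-numbered replicates from their group means correlated at 0.879 across 11489 genes between 1-cell and 2-cell embryos, so 1-cell and 2-cell libraries of the same number are not shown to be independent. Genes are not independent replicates, and the difference between stages was not tested.

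Heat shock and chaperone genes, the list that holds sip-1, were divided, with 16 of 57 higher and 16 lower in sperm, both below the 35.6% and 32% of all genes. Without sperm replicate 2, 8 were called higher and 1 lower, and without sperm replicate 1, 13 higher and 3 lower. The mitochondrial chaperone gene hsp-60 was higher, at 218.6 and 94.1 RPKM in sperm, against 7.39 and 3.49 RPKM in 1-cell embryos. Of 31 aminoacyl-tRNA synthetase genes, which charge tRNAs for translation, 3 were higher and 5 lower, below the shares over all genes, and 0 were called in either direction with either sperm library left out. Among transcripts of at least 100 RPKM in all 4 libraries with the smallest fold changes was isp-1, the Rieske subunit of the respiratory chain, at 403.8 and 414.7 RPKM in sperm and 362.2 and 474.5 RPKM in 1-cell embryos.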
